A study of Mus musculus with 26 samples.

Results

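The 43 genes described here encode proteins that build the mitotic spindle, form the kinetochore, carry the spindle checkpoint, trigger anaphase and divide the cell. They were taken from a list of symbols by role. Each gene was read from 1 probe set, the one that names this gene alone and has the highest mean over all arrays. All 43 listed genes were found among the 18193 genes that have such a probe set, and all 43 passed the filter on low signals, which left 13018 genes for testing. Levels differed among the genes, from a mean of 203 to 478 signal units per group for Cdc25c to a mean of 5350.0 to 8212 for Cks2. Probe sets differ in how well they bind, so these levels are compared between samples and not between genes.

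The measurements came from 26 Affymetrix arrays of immortalized mouse embryonic fibroblasts, cells grown out of mouse embryos and carried into permanent culture. WA, WB and WC are 3 parental lines, and every line was infected with each of 3 retroviral vectors. The series design sets these cells beside a signature from human breast cancer lines that grow without anchorage. The control groups carry pBabe-puro with no insert. The second vector carries human c-myc, a transcription factor and oncogene, and the third, labelled pBabe-human v-src, carries v-src, a tyrosine kinase and the transforming gene of an avian sarcoma virus. There were 3 arrays in 8 of the 9 groups and 2 in the other, WB with v-src (replicate 1 was not analysed here). All groups therefore share immortalization, by a route that the labels do not name, and infection with a pBabe vector. The labels do not say whether infected cells were kept as a pool or as 1 clone, or which promoter drives the insert. They also do not say that the arrays of a group came from separate cultures, so a p-value within a line reflects only array-to-array spread, perhaps technical.

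Most of these genes are silent in resting cells and are transcribed in the later part of the cell cycle, so their messages are abundant only in cultures that divide. The protein products act in a fixed order: kinases and motors build the spindle, kinetochores attach chromosomes to it, and the checkpoint holds anaphase back until every chromosome is attached. The anaphase-promoting complex then marks securin and cyclins for destruction, separase cuts cohesin, and the central spindle directs the cleavage of the cell. The promoters of many such genes carry a cell cycle homology element, a short motif bound by the DREAM and MuvB complexes, and CCAAT boxes, which bind the factor NF-Y. In fibroblasts that grow without limit the level of these messages is often read as a measure of how many cells are dividing.

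The promoters of 6 of the genes are shown because their levels moved together across the vectors (Cdc20, Plk1, Hmmr, Kif11 and Espl1) or departed from that pattern (Spc25). Each sequence runs 5′ to 3′ on the strand of the gene, from 250 bases before the annotated start to 30 bases after it, from RefSeq on GRCm38.p6. Capitals mark TTTGAA or its reverse complement TTCAAA (the core of the cell cycle homology element) and CCAAT or its reverse complement ATTGG. The 6 are examples, and other genes moved together or departed too. Windows of Tacc3, Ndc80, Nuf2, Birc5, Mad2l1 and Pttg1, which are not shown, held neither motif.
Cdc20, chr4:118437314-118437593, minus strand: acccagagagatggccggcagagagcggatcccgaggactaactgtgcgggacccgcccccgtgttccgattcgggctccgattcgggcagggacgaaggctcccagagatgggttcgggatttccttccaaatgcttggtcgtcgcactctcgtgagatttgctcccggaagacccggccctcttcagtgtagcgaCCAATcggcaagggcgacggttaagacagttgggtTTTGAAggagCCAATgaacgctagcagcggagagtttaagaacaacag
Plk1, chr7:122159185-122159464, plus strand: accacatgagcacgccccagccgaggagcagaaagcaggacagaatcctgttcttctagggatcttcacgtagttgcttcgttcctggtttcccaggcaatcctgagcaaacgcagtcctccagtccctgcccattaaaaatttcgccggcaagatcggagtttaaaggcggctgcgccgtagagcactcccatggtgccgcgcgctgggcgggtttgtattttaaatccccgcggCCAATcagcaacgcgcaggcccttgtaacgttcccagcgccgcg
Hmmr, chr11:40733408-40733687, minus strand: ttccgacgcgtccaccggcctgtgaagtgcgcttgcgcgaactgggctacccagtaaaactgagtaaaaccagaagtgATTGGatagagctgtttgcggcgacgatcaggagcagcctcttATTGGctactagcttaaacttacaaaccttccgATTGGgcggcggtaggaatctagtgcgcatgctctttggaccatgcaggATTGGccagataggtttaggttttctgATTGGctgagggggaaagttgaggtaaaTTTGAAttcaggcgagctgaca
Kif11, chr19:37376132-37376411, plus strand: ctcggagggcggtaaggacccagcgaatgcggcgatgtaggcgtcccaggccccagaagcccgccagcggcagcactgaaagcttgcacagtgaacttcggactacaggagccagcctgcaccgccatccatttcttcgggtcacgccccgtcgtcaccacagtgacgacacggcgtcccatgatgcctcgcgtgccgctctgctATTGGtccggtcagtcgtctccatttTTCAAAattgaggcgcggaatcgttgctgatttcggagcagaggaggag
Espl1, chr15:102296043-102296322, plus strand: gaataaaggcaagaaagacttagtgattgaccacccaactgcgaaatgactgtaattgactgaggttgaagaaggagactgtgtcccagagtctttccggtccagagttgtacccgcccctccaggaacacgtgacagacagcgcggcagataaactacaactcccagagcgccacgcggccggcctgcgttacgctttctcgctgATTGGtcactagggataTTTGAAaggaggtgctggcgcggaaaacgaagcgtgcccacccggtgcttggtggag
Spc25, chr2:69206184-69206463, minus strand: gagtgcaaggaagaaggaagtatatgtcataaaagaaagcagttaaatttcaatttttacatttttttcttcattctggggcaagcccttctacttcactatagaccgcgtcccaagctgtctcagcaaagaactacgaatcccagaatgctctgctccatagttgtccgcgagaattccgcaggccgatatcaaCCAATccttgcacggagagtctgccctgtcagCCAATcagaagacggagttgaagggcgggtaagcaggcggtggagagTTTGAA

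A RefSeq promoter was matched for 36 of the 43 genes, in 39 windows of 280 bases. Aurkb, Tpx2, Incenp, Cdc25c, Kif20a, Dlgap5 and Foxm1 were not matched. TTTGAA on either strand was found in 24 of the 39 windows (61.5%), against 17.2% of all 32851 windows of that length. Before they were cut to 280 bases the windows held 300, and over those it was found in 29 (74.4%), against 17.9%. All other counts here are over 280 bases. CCAAT on either strand was found in 31 windows (79.5%), against 36.1% of all windows, and both motifs stood together in 22 windows (56.4%) against 6.40%. The variant TTCGAA, which reads the same on both strands, was found in 4 windows (10.3%) against 1.47%. CACGTG, the palindromic E-box that c-myc binds, was found in 2 windows (5.13%) against 6.79%, and TTTCCCGC, an E2F motif, in 0 windows against 1.01%. In the 113 windows of other mitotic genes TTTGAA was found in 38.05%, CCAAT in 53.1%, both in 23.01%, TTCGAA in 4.42%, and CACGTG and TTTCCCGC in 7.08% each. In the 42 windows of DNA replication genes TTTGAA was found in 11.9%, CCAAT in 57.1%, both in 7.14%, TTCGAA in 4.76%, and CACGTG and TTTCCCGC in 14.3% each. Motifs were searched separately and may overlap. A match describes letters in a window and is not a binding site.

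Signals were on one scale: the mean of each array, trimmed by 2% at each end, was 500. Within a group, WA empty vector replicate 3 and WC c-myc replicate 1 stood apart, with a mean correlation to the other 2 arrays of 0.968 and 0.963, against 0.981 and 0.973 between those others. All 12 fibroblast markers were above the filter on low signals by their mean, with a summed signal of 99315 to 186099.7 per array. Single markers ranged widely over the arrays: Dcn ran from 20.6 to 17076, Pdgfra from 102 to 6389 and Fap from 14.8 to 436. Of the markers of other cell types, 7 of 12 for macrophages and blood, 3 of 8 for endothelium, 6 of 8 for epithelium, 3 of 8 for skeletal muscle and 5 of 7 for neural cells were above it, and Epcam was the highest at a mean of 1779 (97.2 to 5624). Summed signals of the neural list ran from 3053 to 3421 on v-src arrays. They lay above those of all c-myc arrays (1876 to 3040.5) and all empty vector arrays (1916 to 2914). Sums of the fibroblast list were 99315 to 120945 for c-myc, 101150 to 124392 for v-src and 119879.8 to 186099.7 for the empty vector. Both oncogene ranges overlapped only the lower end of the empty vector range. The macrophage and blood list summed to 4042 to 4416 with v-src in WC and to 883 to 2599 on all other arrays. Cd14 had the highest mean of that list and ran from 154 to 2899 over the arrays. Csf1r reached 852 and Lyz2 276, while Ptprc, Itgam and Tyrobp stayed below the filter and reached 71.1, 86.6 and 133. The part of these markers in the differences given next was not tested. The inserts were looked for only through mouse probe sets. The probe set of mouse Myc was lower with c-myc than with the empty vector, at a difference of -2.66 (SE 0.43, adjusted p = 0.00751) over the lines, and it need not detect human c-myc. Src with v-src differed from the empty vector by 0.30 (SE 0.18, adjusted p = 0.313) over the lines. Within lines it rose in WA by 0.81 (SE 0.12, adjusted p = 1.76e-05) and differed by 0.03 (SE 0.14, adjusted p = 0.898) in WB and 0.07 (SE 0.12, adjusted p = 0.744) in WC, and the test of the difference between lines gave an adjusted p of 0.00415.

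In what follows a difference is in log2(signal + 23), and it is called when the adjusted p from limma, with Benjamini-Hochberg adjustment over the 13018 genes, is under 0.05. Comparisons over the lines used the 9 group averages with the line as a term, so n = 3 lines. The 3 such comparisons share groups and are not independent of each other. In cultures measured in bulk, fewer cells in mitosis and less of a transcript per dividing cell cannot be told apart.

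Across the 9 groups the mitotic genes were highest with c-myc in WA and WC and with the empty vector in WB, and lowest with v-src. The mean of the 43 genes was 10.98 ± 0.17 (SD, n = 3) with the empty vector in WA, 11.20 ± 0.07 (SD, n = 3) in WB and 10.81 ± 0.25 (SD, n = 3) in WC. With c-myc the mean was 11.24 ± 0.03 (SD, n = 3) in WA, 11.03 ± 0.06 (SD, n = 3) in WB and 11.22 ± 0.04 (SD, n = 3) in WC. With v-src it was 10.79 ± 0.02 (SD, n = 3) in WA, 10.75 ± 0.08 (SD, n = 2) in WB and 10.70 ± 0.04 (SD, n = 3) in WC. The v-src mean was therefore below the c-myc mean in every line. Replicates of the empty vector in WC were uneven: replicate 1 stood at 10.53, against 10.92 and 10.98 for the others. In WA, replicate 3 stood at 10.81, against 10.99 and 11.15. The median of all tested genes in WC was 9.16 in replicate 1 against 9.12 and 9.18, and in WA it was 9.06 in replicate 3 against 9.13 in both others.

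**Figure D1:**
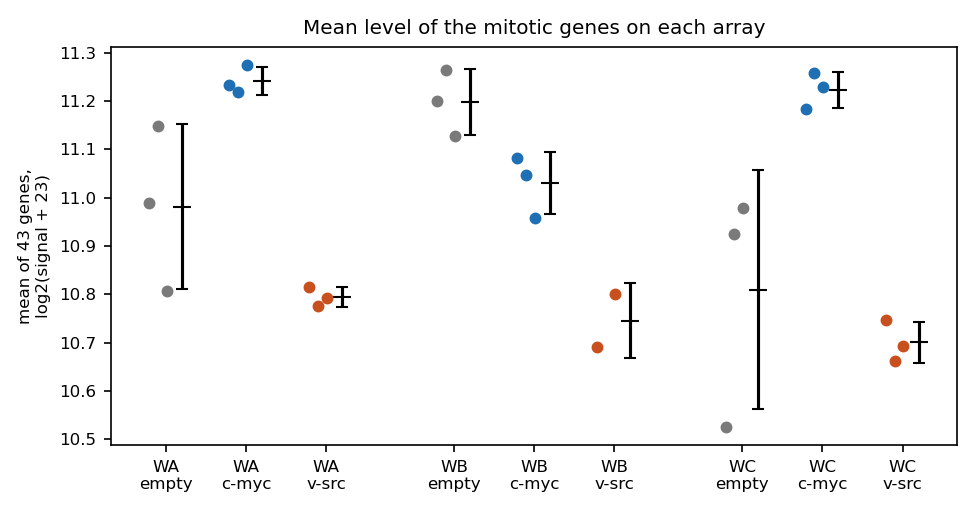
Mean of the 43 mitotic genes on each array, in log2(signal + 23), by parental line and vector; points are arrays and bars are the group mean with 1 SD. All 8 v-src arrays lie between 10.66 and 10.82, and the WC empty vector array at 10.53 is the lowest of the 26.

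The extremes fell mostly in the same few groups. The highest of the 9 group means was with c-myc in WA for 17 genes, with the empty vector in WB for 14 and with c-myc in WC for 11. WB with c-myc held the remaining 1. The lowest mean was with v-src for 18 genes in WC, 8 in WB and 7 in WA, with the empty vector in WC for 6 and with c-myc in WB for 4. Of the variance between the 9 group means, summed over the 43 genes, the vector accounted for 48.9%, the line for 29.7% and their combination for 21.3%. Genes that vary more weigh more in these pooled shares. Over all genes tested these shares were 42.4%, 41.9% and 15.8%. Cdc20 stood at one end, with 94.5% of its variance between vectors, and Pttg1 at the other, with 97.4% between lines. Kif22, a chromosome-arm motor, had the largest share for the combination of line and vector, 64.2%. Over the 903 pairs of genes, Pearson's r across the 9 group means had a median of 0.62 and was above 0 for 861 pairs. The 9 groups share lines and array scaling, so this is a description.

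**Figure D2:**
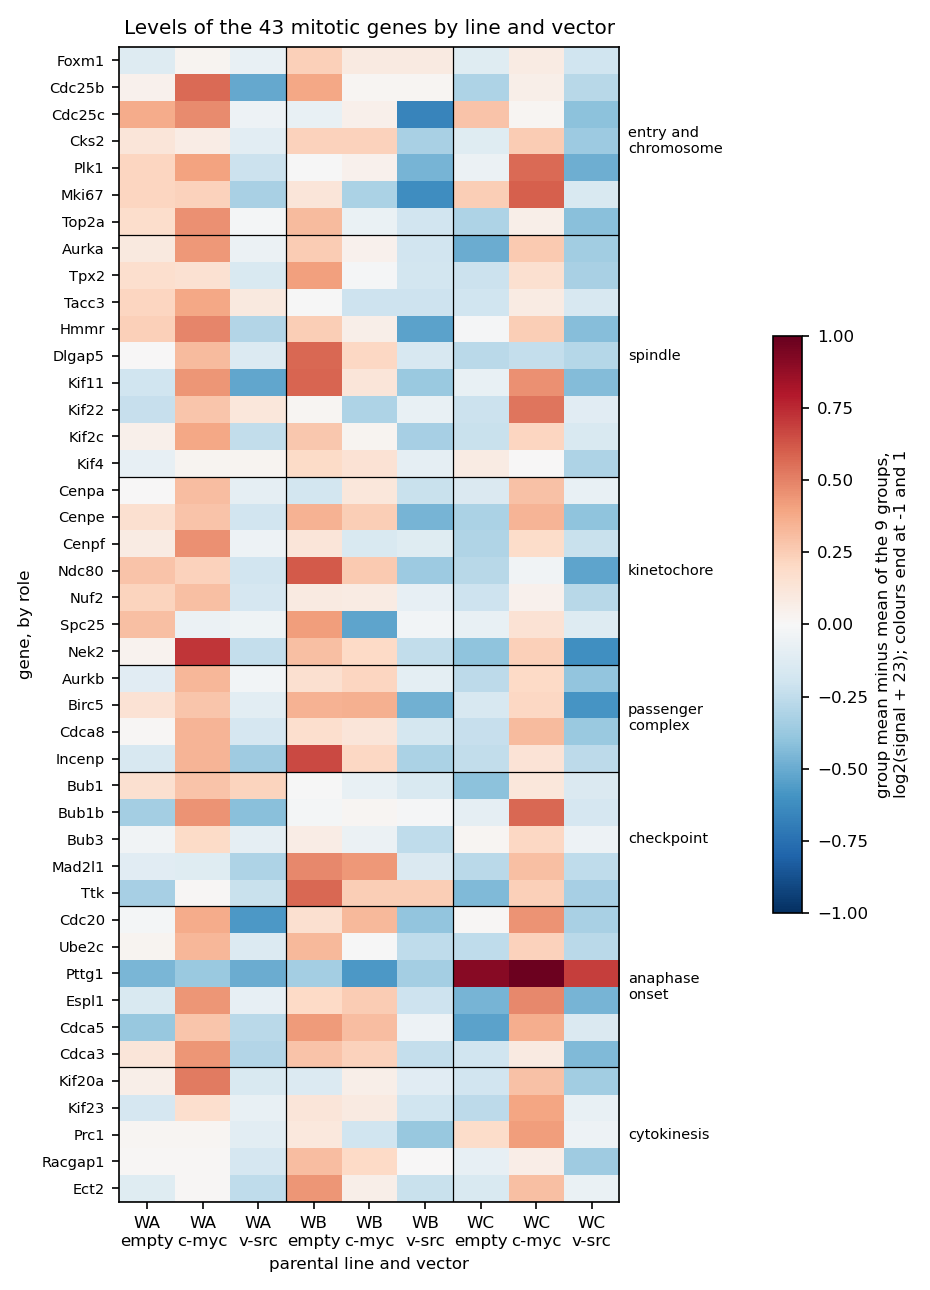
Group mean of each of the 43 genes minus the mean of its 9 groups, in log2(signal + 23), with genes in rows by role and the 9 groups of line and vector in columns. Red is higher and blue is lower, with colours ending at -1 and 1; Pttg1 is red in all WC columns, and the v-src columns are mostly blue.

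Over the 3 lines, c-myc left most of the mitotic genes without a call. Cdc20, the activator of the anaphase-promoting complex, rose by 0.33 (SE 0.08, adjusted p = 0.0269), and Cenpa, the histone that marks centromeres, rose by 0.35 (SE 0.07, adjusted p = 0.0152). These were 2 of the 43 genes, with none lower. Of all genes tested, 19.8% were called in this comparison, 10.0% as higher and 9.76% as lower, so the share among the mitotic genes (4.65%) was below that background. The median difference of the 43 genes was 0.17, against 0.04 over all genes, and 34 of the 43 differences were above 0. The largest estimates did not pass: Espl1 at 0.53 (SE 0.16, adjusted p = 0.0578), Bub1b at 0.50 (SE 0.16, adjusted p = 0.0708) and Cdca5 at 0.48 (SE 0.18, adjusted p = 0.109). Only 8 of the 43 genes (18.6%) were above the empty vector in all 3 lines, against 30.9% of all genes tested. Both calls were lost when any 1 line was left out. Without WB 7 other genes were called, and 4 genes were called without WB c-myc replicate 3, where the shares of all genes called are not given.

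Cenpa signals in WA were 4205, 4805 and 3992 with the empty vector, 5038, 5341 and 5647 with c-myc and 3812, 4071 and 4270.0 with v-src. For WB, Cenpa gave 3937, 3935 and 3526, then 5032, 5066 and 4012, then 3632 and 3763 in the same order. In WC, Cenpa gave 2927, 4195 and 4854, then 5097, 5361 and 5439, then 4420.1, 3859 and 4026. Every c-myc array was above every empty vector array of its line for Cenpa, while the v-src arrays overlapped the empty vector arrays in all 3 lines. The v-src difference of Cenpa from the empty vector was -0.02 (SE 0.07, adjusted p = 0.871), with a 95% interval of -0.19 to 0.14. With the mean of all Cenpa probe sets, 2 of them at lower levels, the c-myc difference was 0.30 and was not called (adjusted p = 0.127).

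With v-src, 7 of the 43 genes fell over the lines and none rose (16.3% of the mitotic genes). Over all genes tested 13.4% were called in this comparison, 6.64% as higher and 6.79% as lower. The median difference of the 43 genes was -0.25, against 0.02 over all genes, and 40 of the 43 differences were below 0. Hmmr, a spindle-pole microtubule protein, fell by 0.58 (SE 0.11, adjusted p = 0.0169). Cdc25c, the phosphatase that switches on Cdk1, fell by 0.57 (SE 0.13, adjusted p = 0.0273), and Ndc80, the kinetochore's microtubule hook, fell by 0.57 (SE 0.15, adjusted p = 0.0455). Mki67, the Ki-67 coat protein of mitotic chromosomes, fell by 0.56 (SE 0.14, adjusted p = 0.0357). Birc5 (survivin), a subunit of the chromosomal passenger complex, fell by 0.50 (SE 0.12, adjusted p = 0.0329). Cdc20 fell by 0.48 (SE 0.08, adjusted p = 0.00922) and Cdca3, which helps degrade Wee1 at mitotic entry, fell by 0.40 (SE 0.10, adjusted p = 0.0423). In 23 of the 43 genes (53.5%) v-src was below the empty vector in all 3 lines, against 25.96% of all genes tested.

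The v-src calls over lines rest on few samples. Leaving out line WA or line WB ended all 7 calls, and without WC 1 gene was called. Without WC empty vector replicate 3, 4 genes were called. Shares of all genes called under these settings are not given here. Of single arrays, Cdc20 and Hmmr kept the call without any of them. Birc5 lost it without WA empty vector replicate 2 or WC empty vector replicate 3, and Cdc25c without WB empty vector replicate 2. Mki67 lost it without WC empty vector replicate 3 or WB v-src replicate 2. Ndc80 lost it without WA empty vector replicate 2, WB empty vector replicate 3 or WC empty vector replicate 2, and without WA v-src replicate 2, WB v-src replicate 2 or WC v-src replicate 1 or 2. Cdca3 lost it without WC empty vector replicate 2 or 3, WC v-src replicate 3, WB c-myc replicate 2 or the first c-myc replicate of WC. Its 2 further probe sets did not show the fall (-0.10 and 0.22). Both were at lower levels, with a mean log2 of 7.50 and 8.52 against 11.16 for the kept one.

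The clearest contrast was between the oncogenes. Over the lines 18 of the 43 genes were lower with v-src than with c-myc, and none was higher (41.9% of the mitotic genes). In all genes tested 25.5% were called here, 13.7% as lower. The median difference of the 43 genes was -0.44, against -0.02 over all genes, and Spc25 was the only gene of the 43 with an estimate above 0. The difference had the same sign in all 3 lines, below 0, for 37 of the 43 genes (86.0%), against 29.1% of all genes tested. For 14 genes every one of the 8 v-src arrays lay below every one of the 9 c-myc arrays, where 6.36% of all genes tested did so. These were Cdc20, Plk1, Hmmr, Kif11, Cenpe, Birc5, Cdca8, Espl1, Cdca3, Kif20a, Cks2, Aurka, Kif2c and Cdca5, and the last 3 were not called over the lines. Of the 18 calls, leaving out line WA lost 13, line WB 6 and line WC 14, and Aurkb, Cdc25c, Cenpa, Cenpe and Ndc80 lost theirs without any 1 line. With the mean of all probe sets of a gene Aurkb (-0.37, adjusted p = 0.134), Cdca3 (-0.25, adjusted p = 0.152), Cenpa (-0.36, adjusted p = 0.0708) and Cenpe (-0.43, adjusted p = 0.129) were not called. With no intensity trend Aurkb, Bub1b, Cks2 and Ndc80 were not called, and with no filter on low signals Bub1b and Ndc80 were not.

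**Figure D3:**
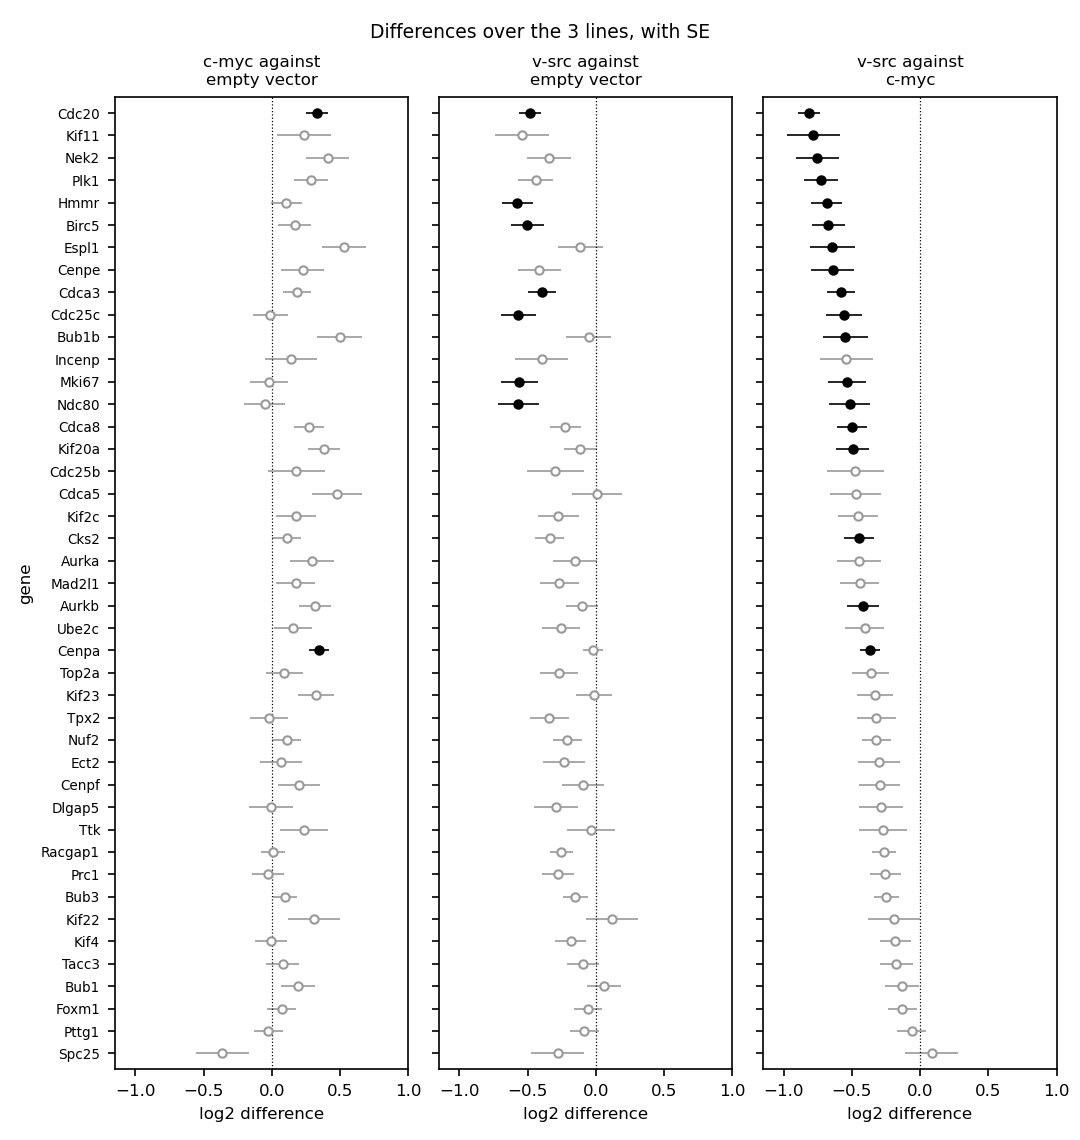
Differences of the 43 genes over the 3 lines in log2(signal + 23), with c-myc against the empty vector at left, v-src against the empty vector in the middle and v-src against c-myc at right. Points are estimates, bars are 1 SE, and filled points passed an adjusted p of 0.05 (2, 7 and 18 genes). Genes are ordered by the difference between v-src and c-myc, and Spc25 is the only one above 0 at right.

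Among the genes of mitotic entry and of chromosome structure, 4 of 7 were lower with v-src than with c-myc. Against the empty vector 2 of 7 fell with v-src, and none was called with c-myc. Of all genes tested 13.7% were lower with v-src than with c-myc, 6.79% fell with v-src and 19.8% were called with c-myc. These shares also apply to the counts by role given below. Plk1 is the kinase that drives entry into mitosis and spindle assembly. Plk1 signals in WA were 2273, 2884 and 2437 with the empty vector, 2464, 3096 and 3093 with c-myc and 1675, 1918 and 2004 with v-src. For WB, Plk1 gave 2003, 2612 and 1933, then 2247, 2312 and 2150.4, then 1461 and 1674 in the same order. In WC, Plk1 gave 1704, 2518 and 2107, then 2655, 3495 and 3594, then 1584, 1609 and 1426. Every v-src array was below every empty vector array of its line, and the c-myc arrays overlapped the empty vector arrays in WA and WB and lay above them in WC. Over the lines Plk1 was lower with v-src than with c-myc by 0.73 (SE 0.13, adjusted p = 0.00626). The Plk1 difference of v-src from the empty vector, -0.44 (SE 0.13, adjusted p = 0.0559), did not pass.

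Mki67 signals in WA were 2718, 2911 and 2722 with the empty vector, 2943, 2710.4 and 2791 with c-myc and 1982, 1885 and 1859 with v-src. For WB, Mki67 gave 2635, 2628 and 2554, then 1661, 1975 and 2154, then 1371 and 1747 in the same order. In WC, Mki67 gave 2393, 2823 and 3368, then 3608, 3839.9 and 3427, then 1986, 2219 and 2233. With v-src it was below the empty vector arrays in all 3 lines, while c-myc arrays lay below them in WB, above them in WC and overlapped them in WA. In WB the v-src and c-myc arrays of Mki67 overlapped. Over the lines Mki67 was lower with v-src than with c-myc by 0.54 (SE 0.14, adjusted p = 0.0258). Cks2, a small subunit that binds cyclin-dependent kinases, was lower with v-src than with c-myc by 0.45 (SE 0.11, adjusted p = 0.0193). Cdc25c signals in WA were 494, 423 and 399 with the empty vector, 558, 367 and 507 with c-myc and 303, 304 and 356 with v-src. For WB, Cdc25c gave 384, 434 and 185, then 316, 312 and 422, then 211 and 195 in the same order. In WC, Cdc25c gave 211, 553 and 581, then 347, 379 and 294, then 266, 202 and 270.5. The Cdc25c arrays of a group spread widely: 1 of 3 empty vector arrays lay far below the others in WB and in WC. Its difference between v-src and c-myc was -0.56 (SE 0.13, adjusted p = 0.0179), lost without WC empty vector replicate 1. Foxm1, the transcription factor of the G2 and M genes, was not called over the lines, with 0.07 for c-myc and -0.06 for v-src. A further Foxm1 probe set of nearly the same level gave -0.13 for c-myc and -0.26 for v-src. Another, at a lower level, gave -0.19 and -0.39, and 1 below the filter gave 0.48 and 0.52. Top2a, which untangles sister chromatids, and Cdc25b, a phosphatase of mitotic entry, were not called over the lines either.

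Of the 9 genes of spindle poles, spindle microtubules and motors, 2 were lower with v-src than with c-myc. Against the empty vector 1 of the 9 fell with v-src. The shares over all genes tested were 13.7% and 6.79%, so with 9 genes these counts are close to that background. Hmmr signals in WA were 2071, 2237 and 1750.3 with the empty vector, 2391, 2317 and 2495 with c-myc and 1343, 1365 and 1452 with v-src. For WB, Hmmr gave 2012, 2192 and 1883, then 1987, 1631 and 1719, then 1078 and 1264 in the same order. In WC, Hmmr gave 1457, 1832 and 1798, then 1709, 2169.7 and 2226, then 1308, 1120.4 and 1363. The v-src arrays lay below the empty vector arrays in each line and the c-myc arrays overlapped the empty vector arrays in WB and WC. Hmmr was lower with v-src than with c-myc by 0.68 (SE 0.11, adjusted p = 0.00549). Kif11 (Eg5) is the motor that pushes the spindle poles apart. Kif11 signals in WA were 1193, 1288 and 783 with the empty vector, 1675, 1536 and 1818 with c-myc and 913, 809 and 828 with v-src. For WB, Kif11 gave 1808, 1895 and 1827, then 1418, 1385 and 1219.8, then 862 and 1027 in the same order. In WC, Kif11 gave 1221, 1138 and 1126, then 1838, 1609.7 and 1619.6, then 998, 940.5 and 779. With c-myc, Kif11 lay above the empty vector arrays in WA and WC and below them in WB. For v-src it overlapped the empty vector in WA, where 1 control array was low, and lay below it in WB and WC. Kif11 was lower with v-src than with c-myc by 0.78 (SE 0.20, adjusted p = 0.0239).

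The other 7 genes of this group were not called over the lines in any of the 3 comparisons. They are Aurka, the spindle-pole kinase, and Tpx2, its activator; Tacc3, which stabilizes spindle microtubules; Dlgap5, which bundles them; Kif22 and Kif4, motors on chromosome arms; and Kif2c, which takes microtubules apart at kinetochores. Their differences between v-src and c-myc ran from -0.45 for Kif2c to -0.18 for Tacc3. Aurka signals in WA were 2465, 2774 and 2387 with the empty vector, 3004, 3099.8 and 3553 with c-myc and 2253, 2319 and 2266 with v-src. For WB, Aurka gave 2922, 2804 and 2774, then 2579.8, 2398 and 2366, then 2108 and 2034 in the same order. In WC, Aurka gave 1248, 1997 and 1888, then 2597, 3104 and 2851, then 1977, 1752 and 1839.7. Aurka with v-src stayed below every c-myc array of the 3 lines, and its c-myc arrays lay above the empty vector arrays in WA and WC and below them in WB. Kif22 signals in WA were 2444, 3654 and 3971 with the empty vector, 4937, 4942 and 4207 with c-myc and 4267, 4409.8 and 3878 with v-src. For WB, Kif22 gave 3287, 4199 and 4396, then 3779, 2466 and 3267, then 3725 and 3634 in the same order. In WC, Kif22 gave 2519, 4203 and 3497, then 4297, 6401 and 6464, then 4241, 3434 and 3121. Kif22 with c-myc lay above the empty vector arrays in WA and WC, and its v-src arrays overlapped the empty vector arrays in each line.

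At the kinetochore, 4 of 7 genes were lower with v-src than with c-myc (Cenpa, Cenpe, Ndc80 and Nek2), against 13.7% of all genes. Cenpf, which binds late to kinetochores, and Nuf2, the partner of Ndc80, were not called over the lines. Cenpe is the motor that carries chromosomes to the spindle equator. Cenpe signals in WA were 1342, 1420.1 and 1227 with the empty vector, 1425, 1464 and 1445 with c-myc and 1026, 1038 and 1041 with v-src. For WB, Cenpe gave 1482, 1561 and 1481, then 1359, 1392 and 1465, then 786 and 919.9 in the same order. In WC, Cenpe gave 829.5, 946 and 1071, then 1436, 1591 and 1481, then 853, 896 and 921. All 8 v-src arrays lay below all 9 c-myc arrays, and in WC the v-src arrays overlapped the empty vector. Cenpe was lower with v-src than with c-myc by 0.64 (SE 0.16, adjusted p = 0.0225), a call that the mean of its probe sets or leaving out any 1 line ended. Nek2 is a kinase of centrosome separation. Nek2 signals in WA were 708, 1372 and 1228 with the empty vector, 1922, 1583 and 1676 with c-myc and 969, 649.6 and 1062 with v-src. For WB, Nek2 gave 1356, 1302 and 1207, then 1359, 1258 and 1005, then 842 and 899.8 in the same order. In WC, Nek2 gave 702, 811 and 836, then 902, 1329.5 and 1554, then 655, 602 and 766. In each line the v-src arrays were below the c-myc arrays, although WB c-myc replicate 3 and WC c-myc replicate 1 lay within the range of the WA v-src arrays. Nek2 was lower with v-src than with c-myc by 0.75 (SE 0.16, adjusted p = 0.0121).

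Ndc80 signals in WA were 648, 869 and 697 with the empty vector, 700.3, 715 and 701 with c-myc and 526, 431 and 613 with v-src. For WB, Ndc80 gave 1001, 942 and 832, then 672, 742 and 749, then 404 and 520.0 in the same order. In WC, Ndc80 gave 386, 694 and 433, then 641, 600.2 and 513, then 384, 294 and 591. Ndc80 arrays overlapped between v-src and the empty vector in WC and not in WA or WB. Between v-src and c-myc Ndc80 differed by -0.52 (SE 0.15, adjusted p = 0.0408), and this call was lost without WB empty vector replicate 3, WC empty vector replicate 2, WA v-src replicate 2 or WC v-src replicate 2. Spc25 sits in the same small complex as Ndc80 and Nuf2. Spc25 signals in WA were 1524, 1757 and 1405 with the empty vector, 1302, 1201 and 1125 with c-myc and 1288, 1167 and 1226 with v-src. For WB, Spc25 gave 1645, 1744 and 1687, then 966, 840.2 and 799, then 1218 and 1256 in the same order. In WC, Spc25 gave 856, 1384 and 1445, then 1511, 1319.6 and 1364, then 1189.6, 1069 and 1195. WB c-myc replicates 2 and 3 gave the lowest Spc25 signals of the 26 arrays, and both oncogenes lay below the empty vector arrays in WA and WB and overlapped them in WC. Between v-src and c-myc Spc25 differed by 0.08 (SE 0.19, adjusted p = 0.799), with a 95% interval of -0.37 to 0.53. A second Spc25 probe set, at a lower level, did not show this pattern (r = -0.02 with the first over the arrays).

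In the chromosomal passenger complex, which corrects faulty attachments, 3 of 4 subunits were lower with v-src than with c-myc, against 13.7% of all genes. Birc5 signals in WA were 4741, 5431 and 4072 with the empty vector, 4620.1, 5628 and 5341 with c-myc and 3937, 4016 and 3933 with v-src. For WB, Birc5 gave 5396, 5738 and 5181, then 5386, 5541 and 5466, then 3039.7 and 3068 in the same order. In WC, Birc5 gave 2850.4, 4262 and 4537, then 4936, 4954 and 4846, then 2787, 2857 and 2809.5. All v-src arrays were below all c-myc arrays for Birc5, and WC empty vector replicate 1 was at the level of the v-src arrays. Birc5 was lower with v-src than with c-myc by 0.67 (SE 0.12, adjusted p = 0.00705), Cdca8 (borealin) by 0.50 (SE 0.11, adjusted p = 0.0153) and Aurkb, the kinase of the complex, by 0.42 (SE 0.12, adjusted p = 0.0344). Of single arrays, the Aurkb call was lost without WA empty vector replicate 1, WB empty vector replicate 3 or WA v-src replicate 3. Incenp is the scaffold of the complex. Incenp signals in WA were 2219, 3593 and 2694 with the empty vector, 4414, 3626 and 3795 with c-myc and 2510.4, 2280.2 and 2462 with v-src. For WB, Incenp gave 5056, 4693 and 5002, then 3961, 4075 and 2832, then 2129 and 2893 in the same order. In WC, Incenp gave 2402, 2692 and 2768, then 3777, 3474 and 3039, then 2506, 2615 and 2641. With c-myc, Incenp lay above the empty vector arrays in WA and WC and below them in WB, and with v-src it was below them in WB and overlapped them in WA and WC. Incenp differed between v-src and c-myc by -0.54 (SE 0.19, adjusted p = 0.0756) and was not called.

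Of the 5 genes of the spindle checkpoint, Bub1b (BubR1), which holds Cdc20 inactive, was the only one called lower with v-src than with c-myc. None was called against the empty vector over the lines. Over all genes tested 13.7% were lower with v-src than with c-myc, so 1 of 5 genes is near that background. Against the empty vector 19.8% of all genes were called with c-myc and 13.4% with v-src. Bub1b signals in WA were 1758, 1728 and 1358 with the empty vector, 2698, 2667 and 2997 with c-myc and 1379.8, 1731 and 1452 with v-src. For WB, Bub1b gave 2015, 2164 and 1849, then 2316, 2049 and 1841, then 1916 and 2116 in the same order. In WC, Bub1b gave 1734, 1914 and 2088, then 3187, 3099 and 2850.0, then 1886, 1718 and 1812. The c-myc arrays of Bub1b stood above the empty vector arrays in WA and WC and overlapped them in WB, and the v-src arrays overlapped them in every line. Bub1b was lower with v-src than with c-myc by 0.55 (SE 0.16, adjusted p = 0.0436), and this call was lost without WB c-myc replicate 1 or WB v-src replicate 2. Bub1 and Ttk, checkpoint kinases, and Bub3 and Mad2l1, subunits of the inhibitory complex, had differences between v-src and c-myc from -0.44 for Mad2l1 to -0.13 for Bub1 and were not called.

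Among the 6 genes of anaphase onset was Cdc20, with the largest difference of the 43 between v-src and c-myc over the lines. Cdc20 signals in WA were 5255, 5678 and 5579.7 with the empty vector, 7503, 6975 and 7091 with c-myc and 3790.4, 3625 and 3781 with v-src. For WB, Cdc20 gave 6449, 6293 and 5916, then 7342, 7253 and 6416, then 4285 and 4178 in the same order. In WC, Cdc20 gave 4292, 6387 and 6388, then 7481, 7794 and 7539, then 4342, 4655 and 4301. All v-src arrays lay below all c-myc arrays, and in WA the 3 vectors did not overlap at all. In WC, empty vector replicate 1 stood with the v-src arrays and the other 2 controls stood between the vectors. Cdc20 was lower with v-src than with c-myc by 0.81 (SE 0.08, adjusted p = 9.90e-04), or 1.76-fold on the scale of signal + 23. A second probe set of Cdc20 gave -0.84 and another, at a lower level, gave -2.05 for the same contrast.

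Espl1 (separase) is the protease that cuts cohesin. Espl1 signals in WA were 1071, 1272 and 679 with the empty vector, 1476, 1427 and 1556 with c-myc and 1037, 1009 and 1021 with v-src. For WB, Espl1 gave 1321, 1303 and 1132, then 1257, 1259 and 1378, then 894 and 984 in the same order. In WC, Espl1 gave 704, 687 and 986, then 1562, 1405 and 1599, then 835, 753 and 751. Espl1 arrays with c-myc lay above the empty vector arrays in WA and WC and overlapped them in WB. In WA, empty vector replicate 3 was below the other controls and the v-src arrays. Cdca3 signals in WA were 2394, 2481 and 2493 with the empty vector, 2981, 2974 and 3266 with c-myc and 1945, 1824 and 1730.1 with v-src. For WB, Cdca3 gave 2803, 2811 and 2625, then 2675, 2899 and 2396, then 1841 and 1959 in the same order. In WC, Cdca3 gave 1392, 2205 and 2441, then 2628, 2294 and 2269, then 1829, 1577 and 1561. For Cdca3 the v-src arrays lay below the empty vector arrays in WA and WB, and in WC empty vector replicate 1 lay below all 3 of them. Espl1 was lower with v-src than with c-myc by 0.64 (SE 0.16, adjusted p = 0.0248), and Cdca3 by 0.58 (SE 0.10, adjusted p = 0.00675). Ube2c, which attaches ubiquitin for the anaphase-promoting complex, and Cdca5 (sororin), the guard of cohesin, were not called over the lines. Pttg1 (securin), the inhibitor of separase, differed by -0.06 (SE 0.11, adjusted p = 0.723).

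In the central spindle and cytokinesis group, Kif20a, a motor of the central spindle, was the gene lower with v-src than with c-myc. Kif20a signals in WA were 1549.7, 1443 and 1203 with the empty vector, 1908, 1907 and 1955 with c-myc and 1111, 1283 and 1210.0 with v-src. For WB, Kif20a gave 1241, 1193 and 1189, then 1499, 1348 and 1322, then 1192 and 1266 in the same order. In WC, Kif20a gave 883, 1301 and 1378, then 1709, 1628 and 1585, then 1071, 1041 and 1022. Every c-myc array of Kif20a was above every empty vector array of its line, and the v-src arrays overlapped the empty vector arrays in all 3 lines. Kif20a was lower with v-src than with c-myc by 0.49 (SE 0.12, adjusted p = 0.0202). It was the only one of 5 genes called over the lines in any comparison. Among all genes tested 13.7% were lower with v-src than with c-myc, so this count is near that background. Kif23 and Racgap1, which form centralspindlin, Prc1, which bundles midzone microtubules, and Ect2, which activates RhoA, had differences between v-src and c-myc from -0.33 for Kif23 to -0.25 for Prc1.

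Within single lines the effect of c-myc on these genes was not the same. In WA 18 of the 43 genes rose with c-myc and 1 fell, and in WC 29 rose and none fell, while in WB none rose and 10 fell. Of all genes tested 37.6% were called in WA, 19.0% as higher, and 37.2% in WC, 18.6% as higher. In WB 27.0% were called, 14.5% as lower. The medians of the 43 genes in WA, WB and WC were 0.29, -0.13 and 0.44, against 0.06, 0.03 and 0.02 over all genes. Without WC empty vector replicate 1, the low control array, 17 genes rose in WC and 1 fell. Without WA empty vector replicate 3, 11 rose and 1 fell in WA. In WB, 5 genes were called without empty vector replicate 1, 6 without empty vector replicate 2, and 5 without c-myc replicate 3, 1 of them higher. For these settings the share of all genes called is not given, so the counts show only how the calls move.

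**Figure D4:**
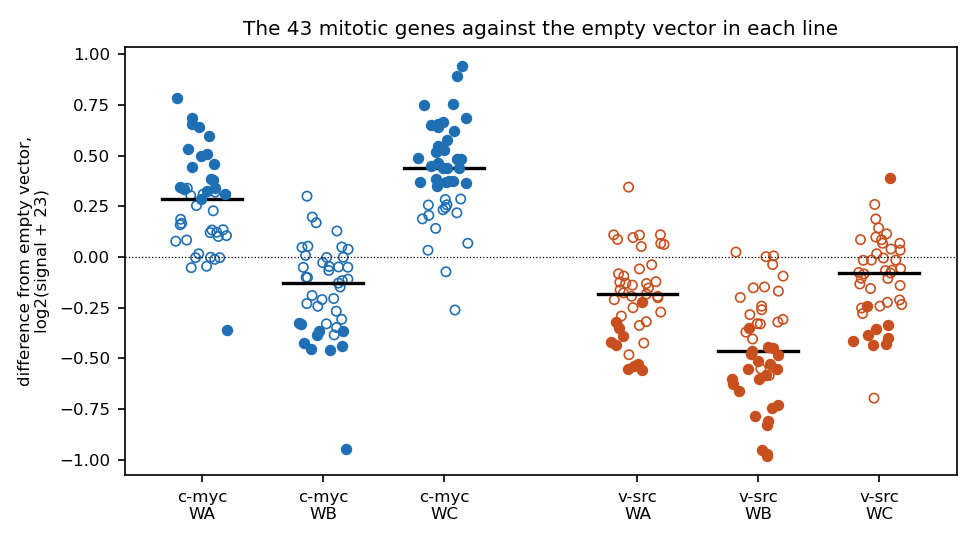
Differences of the 43 genes from the empty vector within each line, in log2(signal + 23), for c-myc at left and v-src at right. Each point is a gene, filled where the adjusted p was under 0.05, and the bars are medians. For c-myc the medians are 0.29, -0.13 and 0.44 in WA, WB and WC, and for v-src -0.18, -0.46 and -0.08.

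For 22 of the 43 genes the c-myc effect differed between lines by the interaction test, against 16.2% of all genes tested. Top2a signals in WA were 5365, 5995 and 4832 with the empty vector, 6107, 6604 and 6993 with c-myc and 4637, 4695 and 4762 with v-src. For WB, Top2a gave 5589, 5984 and 6265, then 4439.7, 4816 and 4401, then 3985 and 4344 in the same order. In WC, Top2a gave 3679, 3872 and 3973, then 5547, 4665 and 4768, then 3594, 3539 and 3575. In none of the lines did the c-myc and empty vector arrays of Top2a overlap. Top2a rose with c-myc in WA by 0.29 (SE 0.08, adjusted p = 0.00571) and in WC by 0.37 (SE 0.08, adjusted p = 5.42e-04), and fell in WB by 0.38 (SE 0.08, adjusted p = 6.88e-04). The test that its c-myc effect differed gave an adjusted p of 5.85e-05, and the mean of all Top2a probe sets ended that call and the 3 single-line calls. The further Top2a probe sets were at lower levels, with a mean log2 of 5.19 and 7.37 against 12.23 for the kept one. Kif11 rose in WA by 0.64 (SE 0.13, adjusted p = 3.92e-04) and in WC by 0.53 (SE 0.13, adjusted p = 0.00233), and fell in WB by 0.46 (SE 0.13, adjusted p = 0.011), where the call was lost without c-myc replicate 3.

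Cdca5 and Espl1 were of another shape, higher with c-myc in WA and WC and overlapping the empty vector in WB. Cdca5 signals in WA were 1400.2, 1453 and 1139 with the empty vector, 2095, 1979 and 2236 with c-myc and 1502, 1441 and 1346 with v-src. For WB, Cdca5 gave 2208, 2407 and 2363, then 2098, 2377 and 1971, then 1632 and 1691 in the same order. In WC, Cdca5 gave 998, 1206 and 1378, then 2042, 2315 and 2318, then 1559.5, 1573 and 1538. In WB the c-myc arrays of Cdca5 overlapped the controls, which were already as high as the c-myc arrays of the other lines. Cdca5 rose by 0.66 (SE 0.10, adjusted p = 1.69e-05) in WA and by 0.89 (SE 0.10, adjusted p = 3.32e-07) in WC, and its difference in WB was -0.12 (SE 0.10, adjusted p = 0.45). Espl1 rose by 0.60 (SE 0.15, adjusted p = 0.00285) in WA and by 0.94 (SE 0.15, adjusted p = 2.54e-05) in WC, against 0.05 (SE 0.15, adjusted p = 0.848) in WB. Bub1b rose by 0.79 (SE 0.11, adjusted p = 2.59e-06) in WA and by 0.67 (SE 0.11, adjusted p = 2.35e-05) in WC. In WC Aurka rose by 0.75 (SE 0.12, adjusted p = 1.62e-05), Ttk by 0.69 (SE 0.12, adjusted p = 6.36e-05) and Cenpe by 0.66 (SE 0.08, adjusted p = 1.69e-06). The adjusted p for a c-myc effect that differs between lines was 7.01e-05 for Cdca5, 2.77e-04 for Kif11, 2.93e-04 for Cenpe and 7.89e-04 for Aurka.

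The genes that fell with c-myc in WB were Spc25, Incenp, Kif11, Mki67, Tpx2, Top2a, Cdc25b, Dlgap5, Ube2c and Ttk. Spc25 fell most, by 0.95 (SE 0.13, adjusted p = 9.41e-06), and Mki67 fell by 0.44 (SE 0.10, adjusted p = 0.00286). Spc25 was also the 1 gene that fell with c-myc in WA, by 0.36 (SE 0.13, adjusted p = 0.0352), a call that was lost without any 1 of 4 WA arrays (empty vector replicates 1 and 2, c-myc replicates 2 and 3).

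With v-src nearly all calls within lines were falls, most of them in WB. In WA 10 of the 43 genes fell and none rose, in WB 23 fell and none rose, and in WC 8 fell and 1 rose. Over all genes tested 27.3%, 25.5% and 28.9% were called in WA, WB and WC, with 13.2%, 12.0% and 13.8% higher and 14.1%, 13.5% and 15.1% lower. The medians of the 43 genes in WA, WB and WC were -0.18, -0.46 and -0.08. Cdc20 fell in each line, by 0.56 (SE 0.10, adjusted p = 1.44e-04) in WA, 0.55 (SE 0.11, adjusted p = 5.40e-04) in WB and 0.34 (SE 0.10, adjusted p = 0.0124) in WC. Cks2, Plk1, Mki67 and Hmmr also fell in each of the 3 lines. In WC the calls of Cdc20 and Cks2 were lost without empty vector replicate 2 or 3, Mki67 without empty vector replicate 3, Hmmr without v-src replicate 2, and Plk1 without empty vector replicate 2 or v-src replicate 3. Plk1 and Cks2 lost the call in WA without empty vector replicate 2 or v-src replicate 1, and Plk1 in WB without empty vector replicate 2 or either v-src array. In WB, where v-src had 2 arrays, Incenp fell by 0.98 (SE 0.16, adjusted p = 5.39e-05), Kif11 by 0.95 (SE 0.15, adjusted p = 2.33e-05), Birc5 by 0.83 (SE 0.13, adjusted p = 3.49e-05) and Cenpe by 0.81 (SE 0.09, adjusted p = 5.77e-07).

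These counts move with single arrays, and the share of all genes called without an array is not given here. Without WA empty vector replicate 3, 16 genes fell in WA, and without WA empty vector replicate 2, 6 fell. Leaving out WB v-src replicate 2 left 15 in WB. In WC 15 fell and none rose without empty vector replicate 1, and 5 genes were called without empty vector replicate 2 or 3. The gene that rose in WC was Cdca5, by 0.39 (SE 0.10, adjusted p = 0.00514), and that call was lost without WC empty vector replicate 1. In WB the same gene fell by 0.48 (SE 0.11, adjusted p = 0.00268). Between lines the response to v-src differed for 8 of the 43 genes, against 13.5% of all genes tested, and the count ran from 2 without WB v-src replicate 2 to 14 without WC empty vector replicate 3. It was 4 or 5 without any 1 of the WB empty vector arrays, WB v-src replicate 3 or WC v-src replicate 1 or 2. Cenpe (adjusted p = 0.00108) and Cdca5 (adjusted p = 0.00112) kept this call without any single array.

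**Figure D5:**
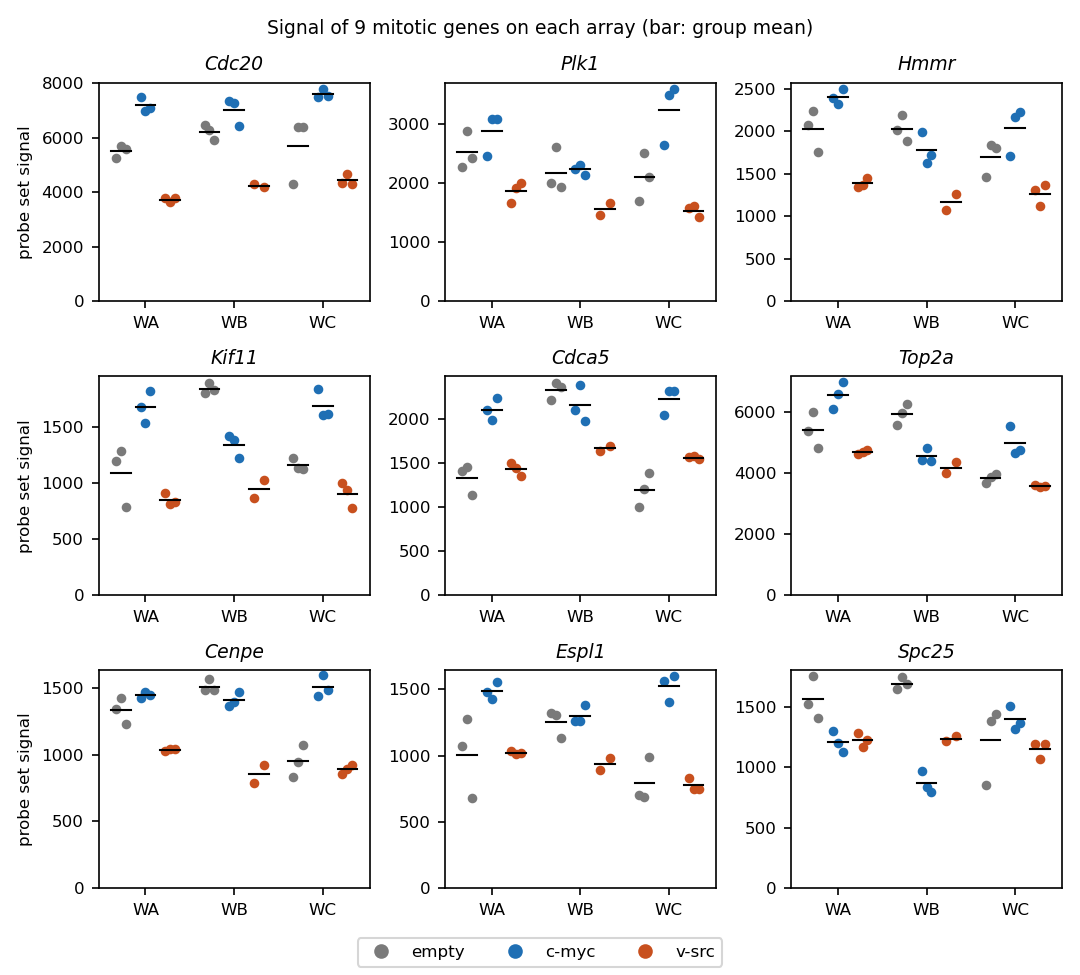
Probe set signal of 9 of the mitotic genes on each of the 26 arrays, by line, with the empty vector in grey, c-myc in blue and v-src in orange; bars are group means and every axis starts at 0. The v-src arrays of Cdc20 lie between 3625 and 4655, below all c-myc arrays, and Cdca5, Top2a and Kif11 show WB controls that overlap or exceed the c-myc arrays of that line.

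With the empty vector alone, WB had the highest level for 33 of the 43 genes and WC the lowest for 31. WB was higher than WC for 25 genes and lower for 1, against 32.5% of all genes tested, 16.5% as higher. Ttk differed most in that direction, by 1.02 (SE 0.12, adjusted p = 3.87e-07), followed by Cdca5 at 0.96 (SE 0.10, adjusted p = 1.02e-07) and Incenp at 0.90 (SE 0.14, adjusted p = 2.68e-05). WA was lower than WB for 9 genes and higher for none (26.1% of all genes tested called, 12.7% higher and 13.4% lower), and Ttk was lower by 0.91 (SE 0.12, adjusted p = 2.83e-06). WA was higher than WC for 11 genes and lower for 1 (29.8% called, 14.7% higher), with Aurka at 0.59 (SE 0.12, adjusted p = 3.44e-04). The count of WA against WC was 20 without WA empty vector replicate 3, 6 without WA empty vector replicate 2, 8 without WC empty vector replicate 1 and 19 without WC empty vector replicate 3. WA against WB gave 16 without WA empty vector replicate 2 and 6 without replicate 3. Beside these counts the share of all genes called is not given.

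The range over the 3 lines was smaller than with the empty vector in 29 of the 43 genes with c-myc and in 35 with v-src. The median range of the 43 genes over the 3 lines was 0.48 with the empty vector, 0.34 with c-myc and 0.26 with v-src, and over all genes tested it was 0.43, 0.40 and 0.40. No test was made of these ranges, and the share of all genes with a smaller range is not given here. The empty vector arrays were uneven in WA and WC, where the mean of the 43 genes had an SD of 0.17 and 0.25. The part of these arrays in the ranges was not tested. With c-myc the lowest line was WB for 27 of the genes. With the empty vector 3 genes were highest in WC, and Pttg1 was the one called there: it was higher in WC than in WB by 1.25 (SE 0.12, adjusted p = 2.72e-08) and higher than in WA by 1.37 (SE 0.12, adjusted p = 6.04e-09). Pttg1 signals in WA were 2659, 2863 and 3098 with the empty vector, 3175, 2844 and 3113 with c-myc and 3024, 2561 and 2811 with v-src. For WB, Pttg1 gave 2959, 3236 and 3148, then 2656, 3116 and 2250.4, then 2824 and 3437 in the same order. In WC, Pttg1 gave 5779, 8462 and 8449, then 7596, 8201 and 7641, then 5925, 6579 and 6650.3. Every WC array of Pttg1 lay above every array of the other lines, whatever the vector. Across the 9 group means Pttg1 had an r of -0.19 with the mean of the other genes, the lowest of the 43, followed by Spc25 at 0.28. Ube2c and Cdca8 had the highest, 0.97.

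Other mitotic genes, a list of 119 of which 116 were measured and 115 tested, gave these counts. With c-myc 12 rose and 1 fell over the lines, with v-src 3 rose and 3 fell, and v-src was below c-myc for 32 and above it for 2. Of all genes tested 10.0% rose and 9.76% fell with c-myc, 6.64% rose and 6.79% fell with v-src, and 13.7% were lower and 11.9% higher with v-src than with c-myc. The medians of the 115 genes were 0.19, -0.10 and -0.25. Mybl2 (B-Myb), the subunit that turns the MuvB complex into an activator, rose with c-myc by 0.97 (SE 0.17, adjusted p = 0.00847) and was lower with v-src than with c-myc by 1.07 (SE 0.17, adjusted p = 0.00402). Vrk1, a kinase of chromatin and the nuclear envelope, rose with c-myc by 0.61 (SE 0.16, adjusted p = 0.0346). E2f5, a repressor E2F, rose with both over the lines, by 1.85 (SE 0.20, adjusted p = 0.00292) with c-myc and 1.63 (SE 0.20, adjusted p = 0.00307) with v-src. These SEs come from group averages, and within lines the SE of E2f5 was larger, 0.74, or 0.83 for v-src in WB. Within lines E2f5 was called with c-myc in WA (adjusted p = 0.0499) and WC and with v-src in WA. It was not called in WB with either vector or in WC with v-src. E2f8 rose with v-src over the lines by 0.94 (SE 0.13, adjusted p = 0.00538). With v-src Gtse1, a microtubule-tip protein, and Cenpk, an inner kinetochore subunit, fell by 0.63 (SE 0.16, adjusted p = 0.0354) and 0.49 (SE 0.11, adjusted p = 0.0259). Spc24, the direct partner of Spc25, was lower with v-src than with c-myc by 0.95 (SE 0.16, adjusted p = 0.00513), Cenpp by 1.00 (SE 0.18, adjusted p = 0.00724) and E2f7 by 0.78 (SE 0.13, adjusted p = 0.00595).

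The DNA replication and licensing genes, active earlier in the cell cycle, gave other counts with c-myc. Of 43 measured, 20 rose with c-myc over the lines and none fell, 3 fell with v-src and none rose, and 29 were lower with v-src than with c-myc. The same backgrounds apply to these counts. The medians of the 43 replication genes were 0.38, -0.08 and -0.54. Cdc6, which loads the helicase, rose with c-myc by 0.96 (SE 0.17, adjusted p = 0.00885), Rfc5, a clamp loader subunit, by 0.93 (SE 0.12, adjusted p = 0.00458) and Orc1, of the origin complex, by 0.87 (SE 0.14, adjusted p = 0.00702). In WB 12 replication genes rose with c-myc and none fell, where 12.5% of all genes tested rose and 14.5% fell. With v-src Rrm1, the large subunit of ribonucleotide reductase, fell by 0.65 (SE 0.10, adjusted p = 0.00597) and Pole, a leading strand polymerase, by 0.85 (SE 0.21, adjusted p = 0.0345). Mcm5, part of the helicase, was lower with v-src than with c-myc by 1.15 (SE 0.10, adjusted p = 6.86e-04). No test compared the lists with each other.

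Of the 43 mitotic genes, 12 had 1 probe set and 31 had 61 further ones, 47 of them above the filter. Those 47 had the sign of the kept probe set in 37 cases for c-myc, 33 for v-src and 42 for v-src against c-myc over the lines. Tpx2 shows the spread: 1 further probe set gave -1.19 with v-src, and the other 2 gave 0.23 and 0.22, against -0.34 for the kept one. For Cdca3 the 2 further probe sets, at lower levels, gave -0.12 and -0.05 for v-src against c-myc, against -0.58 for the kept one. Both further Kif2c probe sets of similar level gave -0.61 and -0.50, close to the -0.45 of the kept one. Another of Kif2c, at a lower level, gave 0.02.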

How the data were processed

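RNA of 9 groups was measured on 26 Affymetrix arrays of 45101 probe sets. The authors deposited 1 intensity value per probe set and array on a linear scale, made with MAS5 per the submitters' processing notes (its version is not given in the sources used here). On every array the trimmed mean (2% off each end) was 500, and array medians ran from 88.95 to 134.56.

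Values were used as log2(signal + 23), 23 being the 20th percentile of all signals. Of the probe sets, 34958 name 1 gene, 932 name several and 9211 are not listed in the platform annotation. Gene IDs of 34754 were found in the gene table. The probe set with the highest mean stood for its gene, and genes with a mean above the 40th percentile were tested (13018 of 18193). All tests came from limma 3.58.1 (R 4.3.3) with a trend on intensity, adjusted by Benjamini-Hochberg with a threshold of 0.05. Comparisons over lines used group averages in a model of line plus vector (degrees of freedom: 4 residual, 3.9 prior). Comparisons within lines used 9 group means of 26 arrays (17 residual, 6.2 prior). The fits were tested on simulated data, with added differences larger than any called over the lines for the 43 genes. Recovery of differences as small as those called was not simulated. All 43 mitotic genes could be named, and from the other lists up to 4 called genes with the largest difference in each comparison over lines, beside Myc and Src.

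The mitotic genes, the other gene lists and the marker lists were chosen with earlier results of these data known. Alternatives were other pseudocounts, filters, scalings, probe set rules and fits, and leaving out lines and single arrays. The number of arrays limits the precision.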

Additional observations from a re-analysis of the deposited data

Results flagged for a closer look

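A difference between the parental lines in the response to a vector was found by limma's interaction test, with Benjamini-Hochberg adjustment over all 13018 genes. For c-myc against the empty vector the adjusted p-values were, from the lowest, Top2a (5.85e-05), Cdca5 (7.01e-05), Kif11 (2.77e-04), Cenpe (2.93e-04), Spc25 (4.35e-04), Ttk (5.05e-04), Aurka (7.89e-04), Tpx2 (0.00152), Bub1b (0.00195), Mki67 (0.00204), Ube2c (0.00208), Incenp (0.00292), Cdc25b (0.0034), Cenpf (0.00483), Mad2l1 (0.00661), Cks2 (0.00747), Cdca8 (0.00992), Kif2c (0.0113), Espl1 (0.0145), Kif22 (0.0161), Ect2 (0.0199) and Dlgap5 (0.0267). For v-src against the empty vector they were Cenpe (0.00108), Cdca5 (0.00112), Incenp (0.00744), Mad2l1 (0.0194), Dlgap5 (0.0226), Kif2c (0.0362), Top2a (0.0476) and Kif11 (0.0484). The tests use arrays within lines, so they measure the spread between arrays. For c-myc, 21 of the 22 genes had their lowest of the 3 differences in WB and 1 (Cks2) in WA. For v-src all 8 had their lowest in WB. Kif11 and Top2a lost the v-src call under most settings that leave out 1 array.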

How the results depend on the processing

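Counts are of the 43 genes called. The share of all genes called under each setting is not given beside them, so they show only how the counts move. With no intensity trend 0 genes were called for c-myc over lines, 3 for v-src over lines and 5 for a v-src effect that differs between lines. With each array as a separate value the counts over lines were 14 for c-myc, 23 for v-src and 36 for v-src against c-myc. This setting treats arrays of the same line as independent, while the labels name only the 3 lines as independent units. Its larger counts are therefore not stronger results. Without line WA they were 0, 0 and 5, without WB 7 (c-myc) and 0 (v-src), and without WC 0, 1 and 4. With the mean of all probe sets of a gene, 4 genes had a v-src effect that differs between lines and 7 differed between WA and WC. Without both arrays that stood apart (chosen after seeing the data) v-src in WA called 17, the v-src effect differing between lines 13, and WA against WC 20. With the replicate number as a block the counts were 23, 26 and 37 over lines and 5 for a v-src effect that differs between lines, but the numbers did not pair the arrays (r of -0.14 to 0.21 over 25 pairs, 5 over 0.1).

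With 1 array left out, the counts ran from 2 to 4 for c-myc, 4 to 10 for v-src and 16 to 22 for v-src against c-myc over lines. Within WA they ran from 12 to 23 for c-myc and 6 to 16 for v-src, within WB from 5 to 15 and 15 to 26, and within WC from 18 to 32 and 5 to 15. For effects that differ between lines they ran from 20 to 26 for c-myc and 2 to 14 for v-src. For the lines themselves they ran from 6 to 16 (WA against WB), 6 to 20 (WA against WC) and 22 to 28 (WB against WC). Of 204 called values, 87 kept the call under every setting that could be run and 3 reversed, all of Cdca3 with the mean of its probe sets: v-src in WA 0.016, v-src in WB 0.029 and WB against WC -0.17. Where a value changed, the cause was not tested. Over lines, the calls kept under every setting were Cdc20, Hmmr and Plk1 for v-src against c-myc, and none for c-myc or v-src against the empty vector.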
